A study of Mus musculus with 6 samples.

Results

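The genes described here are 9 transcriptional targets of p53 that act in cell cycle arrest or feed back on p53 itself, namely Cdkn1a, Mdm2, Ccng1, Btg2, Plk2, Zmat3, Trp53inp1, Gadd45a and Ppm1d. They were taken by symbol from a table of 53465 mouse Ensembl genes, and all 9 were among the 11510 genes that passed the filter on low counts. RNA was sequenced from 3 Myc_Utx and 3 Myc_p53 cell lines grown from liver tumours of C57BL/6 mice. The study calls the lines independent, but which mouse each came from is not given in the sources used here, so that p-values measure the spread between lines, and lines of a group may share an animal. The tumours had been induced in adult female mice by injecting, into the tail vein, a transposon that expresses Myc from an EF1a promoter, together with a plasmid for Cas9 and a guide RNA. In the Myc_Utx lines (2A, 2B and 2D) the guide targeted Kdm6a, also called Utx, which encodes a histone H3K27 demethylase, and in the Myc_p53 lines (1, 2 and 3) it targeted Trp53, the gene of p53. Transgenic Myc is therefore shared by both groups, and no line without it was sequenced. The groups differ in both guides, so an effect of the Kdm6a guide and an effect of the p53 guide cannot be told apart in any value below. A p53 status for the Myc_Utx lines is not given in the sources used here. One point about the group names remains unsettled, since the study's paragraph on sequencing writes Mll3 (Kmt2c) where the labels write Utx, and the labels were followed.

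p53 is a transcription factor that is held at a low level by the ubiquitin ligase Mdm2 and that accumulates when DNA is damaged or oncogenes are active. It binds response elements made of a pair of 10-letter motifs and activates genes that stop the cell cycle, repair DNA, kill the cell or return p53 to its low level. In liver cancer its loss is frequent and cooperates with Myc. Of the 9 genes, Cdkn1a, Btg2, Plk2 and Gadd45a act on the cell cycle, Mdm2, Ppm1d and Ccng1 restrain p53, Trp53inp1 promotes its activity and Zmat3 encodes an RNA-binding protein that acts on splicing.

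Because response elements close to the start site are the most direct sequence feature of such genes, the 250 bases before each RefSeq start site (GRCm38.p6) were searched for the p53 consensus. The table of windows matched 7 of the 9 genes, with 8 windows, and Zmat3 and Trp53inp1 had none. The 10-letter motif is its own reverse complement, so that both strands were covered by reading either. An exact match to it stood in 5 of these 8 windows and in 2338 of 32817 windows of all genes (7.12%). A pair of adjacent motifs without a spacer, with at most 1 of 20 letters off the consensus and with the C and G of both cores kept, was found in 2 of the 8 windows and in 19 of all 32817 (0.0579%). The single and paired matches overlap, since the first motif of the Cdkn1a pair and the second of the Ccng1 pair are exact. The Cdkn1a window held 1 more exact motif, at chr17:29090906-29090915. Cdkn1a and Ccng1 also had the largest differences among the 9 genes, but whether such a pair goes with the size of a difference was not tested. The 2 windows with a pair are shown, up to the first base of the GENCODE M21 gene, with the pair in capitals. Both are written 5′ to 3′ on the strand of the gene.
Cdkn1a, chr17:29090729-29090975, plus strand: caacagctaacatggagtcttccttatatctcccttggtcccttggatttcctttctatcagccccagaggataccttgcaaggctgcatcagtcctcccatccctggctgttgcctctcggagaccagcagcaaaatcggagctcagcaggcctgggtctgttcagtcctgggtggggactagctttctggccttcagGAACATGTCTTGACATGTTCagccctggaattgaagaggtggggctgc
Ccng1, chr11:40755312-40755536, minus strand: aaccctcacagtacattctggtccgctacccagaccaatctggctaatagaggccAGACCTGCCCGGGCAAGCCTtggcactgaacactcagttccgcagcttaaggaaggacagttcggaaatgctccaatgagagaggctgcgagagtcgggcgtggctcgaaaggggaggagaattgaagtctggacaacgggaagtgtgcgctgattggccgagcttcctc

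The Cdkn1a pair ends 31 bases before the upstream start site of the gene, and the window before its second start site (chr17:29093519-29093768) held no exact motif. The pair, which ends at chr17:29090947, lies upstream of that whole window, so it is close to the upstream start site only. Relative to the second start site it is a distal element. Which start site these lines use was not tested. The Ccng1 pair ends 175 bases before the start site. Both pairs lie outside any M21 gene. Of the 42 other p53 targets listed for comparison, 32 had a window and none of their 40 windows held such a pair. The windows of Phlda3 and Eda2r, with log2 fold changes (Myc_Utx over Myc_p53) of 4.37 and 4.43, held no exact single motif either. Single exact motifs, in capitals below, stood before Mdm2, Gadd45a and Ppm1d. Of these 3 genes only Mdm2 differed between the groups. The Gadd45a motif lies inside the M21 gene, and its 10 letters alone are given.
Mdm2, motif at chr10:117710935-117710944, minus strand: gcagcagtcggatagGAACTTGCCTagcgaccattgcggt
Gadd45a, motif at chr6:67037438-67037447, minus strand: GGGCTAGCCC
Ppm1d, motif at chr11:85311122-85311131, plus strand: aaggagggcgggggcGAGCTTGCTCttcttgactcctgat
The windows of Btg2 and Plk2 held none by this rule. Elements with more letters off the consensus, with a spacer between motifs or farther away were not searched. A window without a match therefore does not mean that its gene lacks an element. A match is a description of the letters, not a test of binding, and the known elements of Mdm2 and Gadd45a lie in introns that these windows do not reach.

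Values are given below as CPM, the counts of a gene per 1000000 counts of its library, with library sizes adjusted by TMM factors. Positive log2 fold changes are those of genes with more mRNA in Myc_Utx lines, the standard error (SE) comes from the F statistic, and adjusted p is that of the edgeR quasi-likelihood test with Benjamini-Hochberg adjustment over all 11510 genes. An exact permutation test of 3 lines against 3 cannot give a two-sided p below 0.1. Libraries held 4656103 to 6937497 counts, so that 3 counts correspond to between 0.428 and 0.668 CPM. Gadd45a, with 27 to 122 counts, and Cdkn1a in Myc_p53 lines, with 29 to 185, rest on the fewest counts of the 9 genes.

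The targeted genes were examined first. Trp53 mRNA stood at 294, 295 and 276 CPM in Myc_Utx 2A, 2B and 2D and at 32.4, 34.5 and 35.8 CPM in Myc_p53 1, 2 and 3. It was 8.43-fold lower in the lines labelled p53, and the log2 fold change of 3.07 (SE 0.11, adjusted p = 0.000488) had the smallest adjusted p of all genes tested. Kdm6a mRNA overlapped between the groups, with 39.7, 45.7 and 49.0 CPM in Myc_Utx and 69.5, 64.5 and 42.5 CPM in Myc_p53 lines (log2 fold change -0.39, SE 0.22, adjusted p = 0.243). An edited gene can keep its mRNA, so this value does not check the Utx label. Kmt2c, named in the study's sequencing paragraph, had 69.6, 77.0 and 86.6 CPM in Myc_Utx against 148, 116 and 121 CPM in Myc_p53 lines (log2 fold change -0.73, SE 0.15, adjusted p = 0.0289), and with transcript length offsets its adjusted p was 0.166. With a line left out, Kmt2c passed in 1 of 6 fits.

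The defining hepatocyte markers were nearly absent from both groups, and 3 of the 10 hepatocyte markers listed were tested. Albumin (Alb) had 4 to 26 counts in any library and Afp 3 to 20. The keratins Krt8 and Krt18 were high in Myc_p53 1 and 3 (717 and 446 CPM for Krt8) and low in Myc_p53 2 (15.4 CPM) and the Myc_Utx lines (12.2, 37.4 and 0 CPM). With these keratins the hepatocyte list summed to 3.12 to 94.4 CPM in Myc_Utx and 41.3 to 1210 CPM in Myc_p53 lines. Endothelial and lymphocyte markers were near 0 throughout, with summed levels of at most 2.53 and 0.474 CPM. The summed level of 12 macrophage markers was 37.6 to 56.0 CPM in Myc_Utx and 60.2 to 135 CPM in Myc_p53 lines. At an adjusted p under 0.05 (edgeR), 5 of the 7 tested were lower in Myc_Utx lines and 1 was higher. Over all genes tested, 7.69% were lower and 6.99% higher by this rule. Among the 5 were Csf1r and C1qa, with at most 1 and 2 counts in Myc_Utx lines. Of 6 cholangiocyte markers 4 were tested and 1 was lower, with sums of 510.4 to 1441 CPM in Myc_Utx and 155 to 1476 CPM in Myc_p53 lines. Fibroblast markers, tested for 5 of 9, did not pass the threshold in either direction and summed to 1953 to 2692 CPM in Myc_Utx and 41.9 to 3164 CPM in Myc_p53 lines. The part of these other cell types in the results below was not tested. In such bulk libraries, fewer cells of a type and less RNA per cell cannot be told apart.

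Of the 9 genes, 6 were higher in Myc_Utx than in Myc_p53 lines at an adjusted p under 0.05 and none was lower. Over all genes tested, 6.99% were higher and 7.69% lower by the same rule. For each of these 6 genes every Myc_Utx line lay above every Myc_p53 line, a separation in that direction that 21.1% of all genes tested shared. None of the 9 genes was separated in the lower direction, against 20.9% of all genes tested. The median log2 fold change of the 9 genes was 1.96, against -0.0117 over all genes tested. Together the 9 genes summed, without TMM factors, to 2299, 2237 and 1475 CPM in Myc_Utx 2A, 2B and 2D and to 426, 346 and 534 CPM in Myc_p53 1, 2 and 3. Cdkn1a, Ccng1, Mdm2 and Zmat3 made up 80.4%, 78.1% and 78.9% of this sum in the Myc_Utx lines. In the Myc_p53 lines their share was 38.2%, 51.5% and 40.4%.

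**Figure D1:**
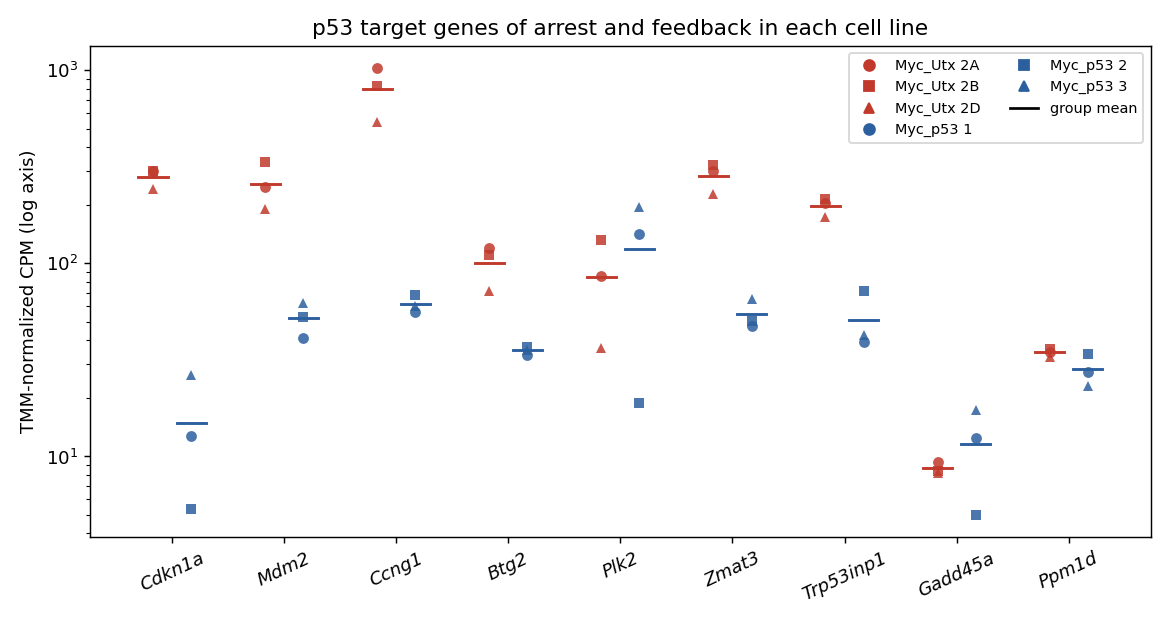
Level of each of the 9 genes in each cell line, in TMM-normalized CPM on a log axis, with Myc_Utx lines in red, Myc_p53 lines in blue, a marker shape for each line and bars at the group means (n = 3 lines). Cdkn1a, Mdm2, Ccng1, Btg2, Zmat3 and Trp53inp1 separate the groups, whereas Plk2, Gadd45a and Ppm1d overlap.

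Among the genes that act on the cell cycle, Cdkn1a encodes p21, the inhibitor of cyclin-dependent kinases that carries out much of the p53-dependent arrest. Cdkn1a (ENSMUSG00000023067, chr17:29090979-29100722 as the table gives it, plus strand, protein coding) had 301, 300.3 and 243 CPM in Myc_Utx 2A, 2B and 2D. In Myc_p53 1, 2 and 3 it had 12.8, 5.38 and 26.4 CPM, from 81, 29 and 185 counts. The lowest Myc_Utx line was thus 9.23 times the highest Myc_p53 line. The means of 281 ± 32.9 and 14.9 ± 10.7 (SD, n = 3 each) differed 18.9-fold, and the log2 fold change was 4.23 (SE 0.54, adjusted p = 0.0156). This was the 29th highest log2 fold change of all genes tested. The M21 annotation places AC167363.2 on the opposite strand at this locus, and without strand information reads of the pair cannot be told apart.

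Btg2, an antiproliferative protein that recruits the mRNA deadenylation machinery, differed least among the 6 genes. Btg2 (ENSMUSG00000020423, chr1:134075170-134079120, minus strand) had 120.5, 111 and 71.7 CPM in Myc_Utx 2A, 2B and 2D against 33.5, 37.1 and 35.6 CPM in Myc_p53 1, 2 and 3. The Myc_p53 lines lay close together, with a coefficient of variation of 5.07%, and the lowest Myc_Utx line, 2D, was 1.93 times the highest of them. On the log2 scale the groups differed by 1.51 (SE 0.21, adjusted p = 0.0164).

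Plk2, a polo-like kinase of the centriole cycle, did not differ between the groups beyond the spread of the lines. Plk2 (ENSMUSG00000021701, chr13:110395046-110400844, plus strand) had 86.2, 132 and 36.3 CPM in Myc_Utx 2A, 2B and 2D and 143, 18.9 and 196 CPM in Myc_p53 1, 2 and 3. The lowest and the highest line were both Myc_p53 lines. The log2 fold change was -0.49 (SE 0.82, adjusted p = 0.698), and its sign rested on single lines, being 0.06 without Myc_p53 3. The 2 Myc_p53 lines with high Plk2 are those with high Krt8. Cdkn1a and Gadd45a were likewise lowest in Myc_p53 2, and the part of that line difference in the results for these genes was not tested.

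Gadd45a, a stress sensor that binds Pcna and p21, was the lowest of the 9 genes in Myc_Utx lines. Gadd45a (ENSMUSG00000036390, chr6:67035096-67037457, minus strand) had 9.37, 8.43 and 8.24 CPM in Myc_Utx 2A, 2B and 2D, from 47, 45 and 37 counts, and 12.5, 5.0 and 17.4 CPM in Myc_p53 1, 2 and 3. The Myc_Utx lines fell inside the range of the Myc_p53 lines, with a coefficient of variation of 7.01% against 53.7%. On the log2 scale the groups differed by -0.42 (SE 0.45, adjusted p = 0.532). Reads of E230016M11Rik, annotated on the opposite strand, could be counted here as well.

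Of the genes that restrain p53, Mdm2 encodes the ubiquitin ligase that p53 induces and that in turn degrades it. Mdm2 (ENSMUSG00000020184, chr10:117688875-117710758, minus strand, 12 exons in its coding transcripts) had 250.3, 335 and 192 CPM in Myc_Utx 2A, 2B and 2D against 41.2, 52.8 and 62.0 CPM in Myc_p53 1, 2 and 3. The groups were apart by a factor of 3.09 between their nearest lines. The log2 fold change was 2.31 (SE 0.26, adjusted p = 0.0127), a 4.98-fold difference of the means.

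Ccng1 encodes cyclin G1, which binds Mdm2 and a subunit of protein phosphatase 2A. Ccng1 (ENSMUSG00000020326, chr11:40748552-40755311, minus strand) was the most abundant of the 9 genes in Myc_Utx lines, with 1026, 829 and 542 CPM in Myc_Utx 2A, 2B and 2D. In Myc_p53 1, 2 and 3 it had 55.9, 68.6 and 59.9 CPM, and every Myc_Utx line was at least 7.91 times the highest of these. The means were 799 ± 243 and 61.5 ± 6.47 (SD, n = 3 each), 13-fold apart, with a log2 fold change of 3.70 (SE 0.26, adjusted p = 0.00511).

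Ppm1d encodes Wip1, a phosphatase that removes activating phosphates from p53 and from the kinases upstream of it. Ppm1d (ENSMUSG00000020525, chr11:85311244-85347066, plus strand) had 34.9, 36.1 and 32.7 CPM in Myc_Utx 2A, 2B and 2D and 27.3, 34.1 and 23.2 CPM in Myc_p53 1, 2 and 3. Myc_p53 2 lay within the range of the Myc_Utx lines. Its log2 fold change was 0.29 (SE 0.18, adjusted p = 0.297).

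Zmat3, a zinc finger protein that binds RNA and regulates splicing, was higher in Myc_Utx lines. Zmat3 (ENSMUSG00000027663, chr3:32334792-32366014, minus strand) had 302, 325 and 229 CPM in Myc_Utx 2A, 2B and 2D against 47.6, 50.6 and 65.2 CPM in Myc_p53 1, 2 and 3. The nearest lines of the groups differed 3.51-fold. Its log2 fold change was 2.39 (SE 0.19, adjusted p = 0.00723).

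Trp53inp1 encodes a stress protein that favours phosphorylation of p53 and also acts in autophagy. Trp53inp1 (ENSMUSG00000028211, chr4:11156431-11174379, plus strand) had 207, 215 and 174 CPM in Myc_Utx 2A, 2B and 2D and 39.2, 71.7 and 42.5 CPM in Myc_p53 1, 2 and 3. Here Myc_p53 2 was the highest of its group, the reverse of Cdkn1a, where it was the lowest. The log2 fold change was 1.96 (SE 0.26, adjusted p = 0.0163).

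**Figure D2:**
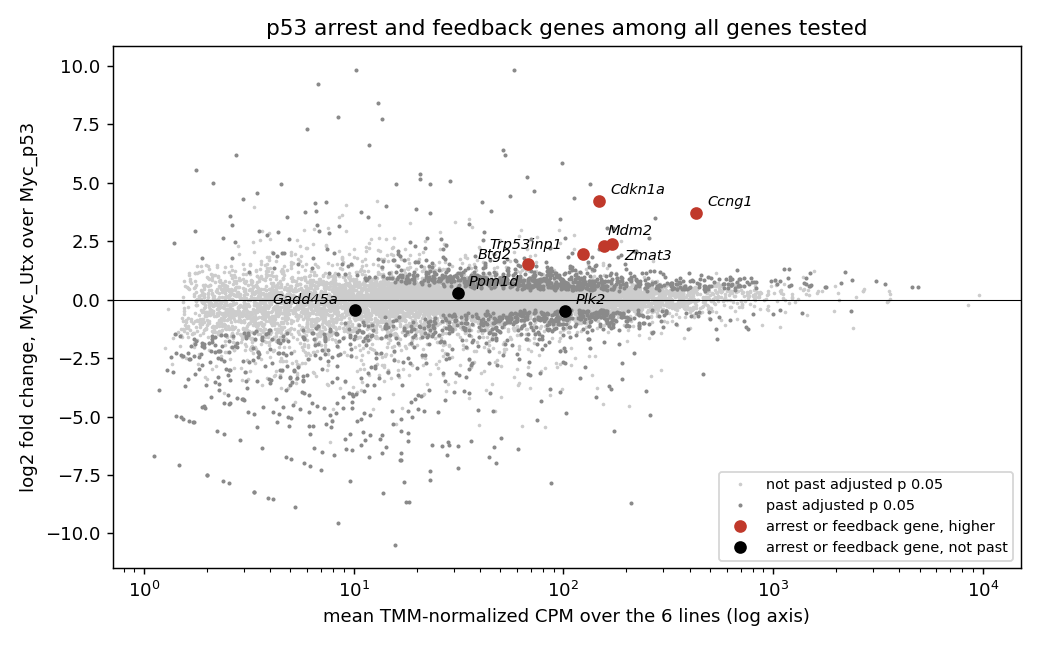
Log2 fold change (Myc_Utx over Myc_p53) against the mean TMM-normalized CPM over the 6 lines on a log axis, for 11510 genes tested, with the 9 genes named. Cdkn1a (4.23) and Ccng1 (3.70) rank 29 and 42 by log2 fold change, and Plk2, Gadd45a and Ppm1d lie within the bulk.

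The 6 genes did not follow the same order over lines within a group. Line 2D was the lowest of the Myc_Utx lines for all 9 genes, with a median deviation of -0.30 on the log2 scale from the group mean, while 2A and 2B were at 0.10 and 0.12. The 2D library also had the smallest total, 4656103 counts, and 0 counts of Krt8. In the Myc_p53 group, Myc_p53 3 was the highest line for Cdkn1a, Mdm2 and Zmat3, whereas Myc_p53 2 was the highest for Ccng1, Btg2 and Trp53inp1. Cdkn1a had the widest relative spread among Myc_p53 lines of the 6 genes, a coefficient of variation of 71.7%, and Btg2 the narrowest.

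Levels can be compared between genes only per transcript length, here as CPM per kilobase with the length given in the table. In Myc_Utx lines the order was Ccng1 (228 ± 69.2, SD, n = 3 for each value), Cdkn1a (127 ± 14.8), Mdm2 (51.0 ± 14.2), Btg2 (36.8 ± 9.41), Trp53inp1 (30.6 ± 3.35), Zmat3 (24.9 ± 4.40), Plk2 (18.9 ± 10.7), Ppm1d (10.9 ± 0.543) and Gadd45a (4.92 ± 0.345). Ccng1, Cdkn1a and Mdm2 had ranges over lines that did not overlap from one to the next, and Ppm1d did not overlap Gadd45a, while all neighbours between Mdm2 and Ppm1d overlapped. In Myc_p53 lines Plk2 came first at 26.6 ± 20.3 CPM per kilobase, overlapping Ccng1 at 17.5 ± 1.84, and Cdkn1a was seventh at 6.68 ± 4.79, overlapping both of its neighbours. Cdkn1a, second in Myc_Utx lines, was thus among the low genes of Myc_p53 lines, whose values from Mdm2 down to Zmat3 lay between 10.2 and 4.76 CPM per kilobase.

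To set each gene against a relative of the same family in the same library, the log2 ratio of their counts per transcript length was taken. This ratio does not depend on how libraries are scaled. It could be formed for 8 pairs, since Zmat4 had at most 1 count in any line. Plk3, the relative of Plk2, is itself also listed among the other p53 targets below. For Cdkn1a over Cdkn1b, the gene of the p27 inhibitor, it was 2.45, 3.05 and 2.67 in Myc_Utx 2A, 2B and 2D and -2.25, -3.32 and -0.998 in Myc_p53 1, 2 and 3. Transcripts of p21 thus outnumbered those of p27 per length in every Myc_Utx line and were outnumbered in every Myc_p53 line.

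For Mdm2 over Mdm4, the gene of a partner that inhibits p53 without degrading it, the log2 ratio was 1.98, 2.60 and 2.01 in Myc_Utx lines and -0.000383, 0.12 and 0.26 in Myc_p53 lines. By the lengths used, 5083 bases for Mdm2 and 14798 for Mdm4, the pair was therefore close to equal in Myc_p53 lines. In counts Mdm4 was the higher there, with 761, 766 and 1055 against 261, 285 and 435 for Mdm2 in Myc_p53 1, 2 and 3. Which transcripts of the pair these lines express was not tested. Mdm4 itself had a log2 fold change of 0.23 (SE 0.15, adjusted p = 0.313). For Ccng1 over Ccng2 the log2 ratio was 5.59, 5.66 and 5.11 against 0.83, -0.0167 and 0.61. Ccng2, a cyclin known as a FoxO target, went the other way and was lower in Myc_Utx lines, with 33.1, 25.5 and 24.3 CPM against 49.0, 108 and 61.2 CPM (log2 fold change -1.39, SE 0.32, adjusted p = 0.0392). For Trp53inp1 over Trp53inp2 the log2 ratio was 2.55, 2.74 and 2.24 against 0.50, -0.33 and -0.49.

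These 4 ratios separated the groups (two-sided exact permutation p = 0.1, which 3 lines against 3 cannot go below, and 0.2 after Benjamini-Hochberg adjustment over the 8 pairs). The other 4 overlapped. Among single genes tested, 42% separated the groups in either direction, and no such share was computed for ratios of other gene pairs. Btg2 over Btg1 differed by 0.84 on the log2 scale (exact permutation p = 0.2, adjusted p = 0.32), Plk2 over Plk3 by -0.51 (p = 0.6, adjusted p = 0.686), Gadd45a over Gadd45b by 0.0825 (p = 0.9, adjusted p = 0.9) and Ppm1d over Ppm1a by 0.25 (p = 0.4, adjusted p = 0.533).

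**Figure D3:**
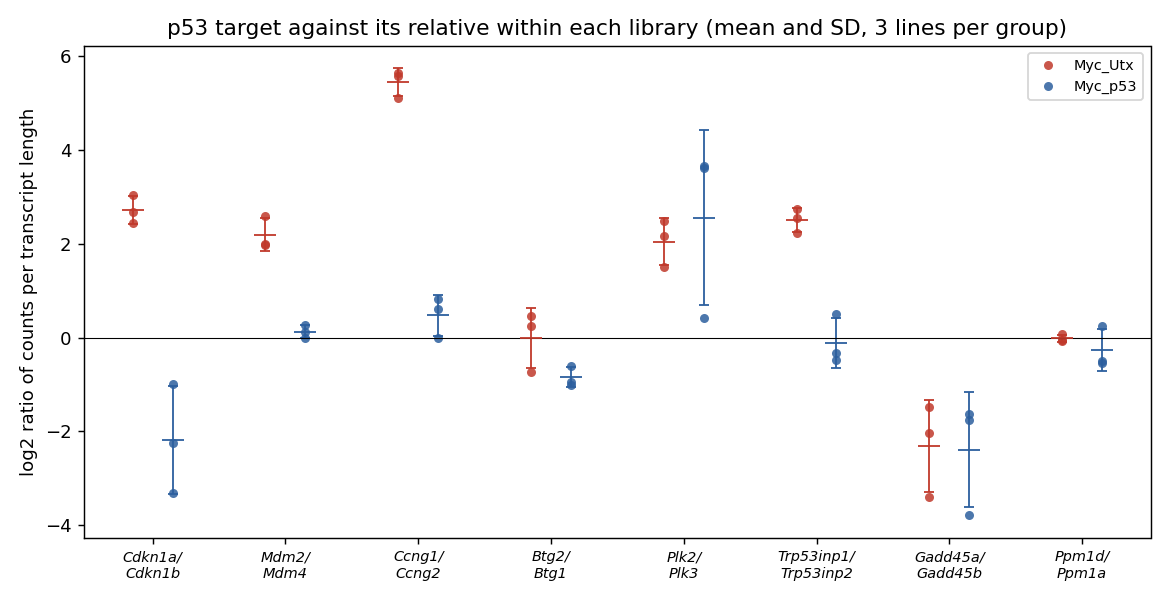
Log2 ratio of counts per transcript length of each p53 target to a relative in the same library, with points for lines (Myc_Utx red, Myc_p53 blue), bars at the means and whiskers of 1 SD (n = 3 lines). The ratios of Cdkn1a, Mdm2, Ccng1 and Trp53inp1 to their relatives separate the groups, and the other 4 overlap.

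Of the 16 relatives listed, 13 were tested. Plk1, the mitotic polo-like kinase, was higher in Myc_Utx lines (log2 fold change 0.78, SE 0.12, adjusted p = 0.0171), Ccng2 was lower, and 11 did not pass the threshold. This share of 15.4% is near the 14.7% of all genes tested that passed in either direction. The median log2 fold change of the relatives was -0.16.

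Other p53 targets showed the same direction where they passed by edgeR. Over 4 lists of such genes, 40 of 42 were tested, 15 were higher in Myc_Utx lines and none was lower, with a median log2 fold change of 0.49. Of the 40, 7 had a log2 fold change below 0, and by DESeq2 1 signalling target was lower. The share that passed was 37.5%, against 6.99% of all genes tested that were higher, and differences in this share between the lists were not tested. Without Myc_Utx 2A, where 4 genes passed over the whole table, 0 of them passed by edgeR.

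Among p53 targets that act in apoptosis, whether to promote or to restrain it, 7 of 11 were higher, with a median log2 fold change of 1.40. The proapoptotic Bcl2 family gene Bax had 233, 246 and 245 CPM in Myc_Utx against 62.9, 42.3 and 55.6 CPM in Myc_p53 lines (log2 fold change 2.17, SE 0.17, adjusted p = 0.00644). The log2 fold changes were 1.40 for Ei24 (adjusted p = 0.0127), which encodes an endoplasmic reticulum protein, and 1.56 for Tnfrsf10b (adjusted p = 0.0130), the death receptor of the ligand TRAIL.

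In the list named for DNA repair and nucleotide supply, 3 of 7 genes were higher and the median was 0.20. Gtse1, counted among these 3, belongs to neither function. The higher genes of this list were Gtse1 (log2 fold change 1.83, adjusted p = 0.00803), a microtubule-associated protein that also restrains p53, the excision nuclease gene Ercc5 (1.73, adjusted p = 0.0127) and the translesion polymerase gene Polk (1.08, adjusted p = 0.0211). Log2 fold changes were below 0 for 2 of the 7, the lowest being -1.10, and none of these passed. For metabolism and restraint of mTORC1, 8 of 9 were tested and 3 were higher, with a median of 0.59. These were the mTORC1 inhibitors Ddit4 (1.81, adjusted p = 0.0154) and Sesn2 (1.69, adjusted p = 0.0164), and Fdxr (1.205, adjusted p = 0.0463), which encodes a mitochondrial ferredoxin reductase.

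Among the other targets, which signal or are secreted, 14 of 15 were tested and 2 were higher, with a median of 0.30, a share of 14.3% against 6.99% of all genes tested that were higher and 14.7% that passed in either direction. Both differences were of the size of Cdkn1a. Phlda3, an inhibitor of Akt, had 245, 220.2 and 181 CPM in Myc_Utx against 3.002, 9.08 and 18.8 CPM in Myc_p53 lines (log2 fold change 4.37, SE 0.61, adjusted p = 0.0164). Eda2r, a receptor of the tumour necrosis factor family, had 111, 128 and 81.1 CPM against 9.96, 1.67 and 3.14 CPM (log2 fold change 4.43, SE 0.63, adjusted p = 0.0164). Log2 fold changes were below 0 for 3 of the 14 genes tested in this list, the lowest being -3.12. None of these 3 passed by edgeR, while 1 gene of the list was lower by DESeq2.

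**Figure D4:**
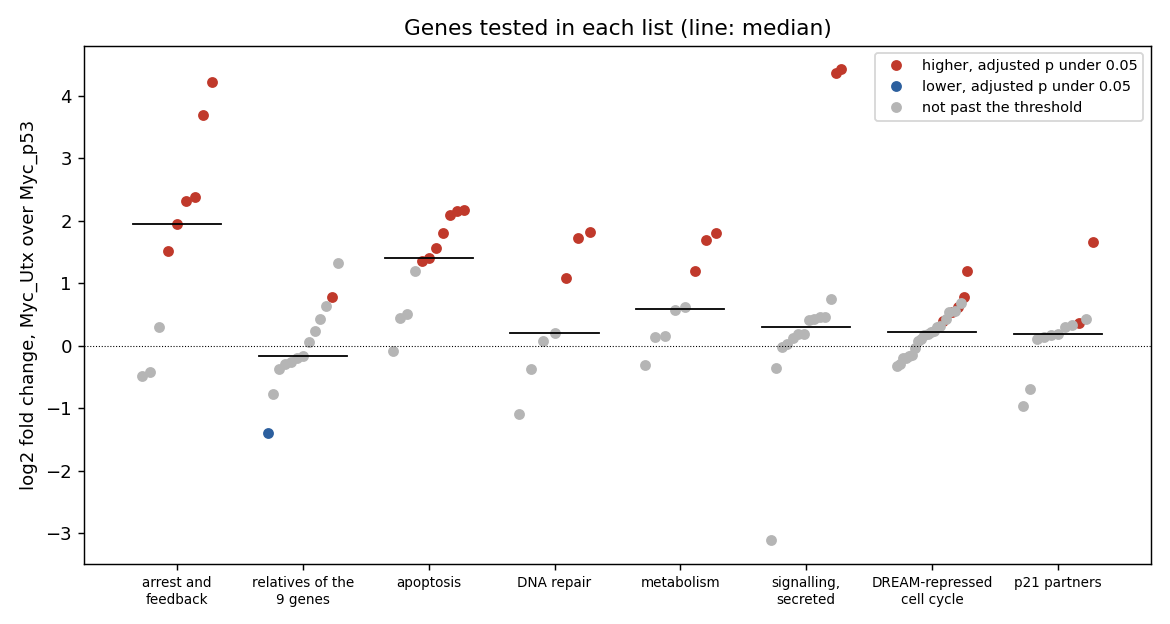
Log2 fold change (Myc_Utx over Myc_p53) of the genes tested in each list, ordered by value within a list, with red for higher and blue for lower at an adjusted p under 0.05, grey for the rest and a line at the list's median. The median is 1.96 for the 9 arrest and feedback genes, 1.40 for the apoptosis list, and 0.23 for cell cycle genes that p21 represses through the DREAM complex.

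Genes downstream of p21 were compared next. High p21 is known to repress cell cycle genes by way of the DREAM complex. Of 24 such genes, all tested, 5 were higher in Myc_Utx lines, none was lower and 19 did not pass, with a median log2 fold change of 0.23. The share that was higher was 20.8%, against 6.99% of all genes tested, and the count depended on the setting, being 3 with total counts only, 9 by DESeq2 and 0 without Myc_Utx 2A. Those that passed included Rrm2, a ribonucleotide reductase subunit (log2 fold change 1.19, SE 0.11, adjusted p = 0.0103), Plk1 and Mcm5, part of the replicative helicase (0.62, adjusted p = 0.0274). The summed level of the 24 genes was 5592 to 6320 CPM in Myc_Utx lines and 4747 to 4982 CPM in Myc_p53 lines.

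Of 11 cyclins, kinases and Pcna that p21 binds, 2 were higher and 9 did not pass, with a median of 0.18. Their share of 18.2% compares with 6.99% of all genes tested that were higher and 14.7% that passed in either direction. The count fell to 1 under 6 of the 7 other settings with all lines, rose to 4 by DESeq2, and was 0 or 1 with a line left out, being 0 without Myc_Utx 2A, 2B or 2D. Ccne1, the gene of cyclin E1, had 76.4, 82.9 and 113 CPM in Myc_Utx against 18.3, 26.3 and 41.6 CPM in Myc_p53 lines (log2 fold change 1.65, SE 0.33, adjusted p = 0.0276). Cdk4, with a log2 fold change of 0.37 (SE 0.09), lay at the threshold (adjusted p = 0.0496).

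Across the 6 lines, the genes whose log2 CPM was most like that of Cdkn1a by Pearson's r, the 9 genes aside, were Aen (0.997), a p53-induced nuclease, Gna11 (0.996), Thap12 (0.996), Ltbr (0.996) and Gm4617 (0.995). The groups form 2 clusters of 3 lines, so that any gene that separates them gives a high r, and no p was computed. Among the 9 genes, r to Cdkn1a was between 0.87 and 0.97 for the other 5 that differed, 0.47 for Ppm1d, 0.20 for Plk2 and 0.04 for Gadd45a.

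Whether the 6 calls rest on single lines was examined by leaving out each line in turn. Their log2 fold changes stayed positive in all 6 fits, from 3.84 to 4.93 for Cdkn1a, 3.50 to 3.93 for Ccng1, 2.10 to 2.51 for Mdm2, 2.29 to 2.54 for Zmat3, 1.79 to 2.28 for Trp53inp1 and 1.39 to 1.73 for Btg2. The adjusted p passed 0.05 in all 6 fits for Ccng1, in 5 for Mdm2 and Zmat3, in 3 for Cdkn1a and Btg2 and in 2 for Trp53inp1. Without Myc_Utx 2A only Ccng1 passed (adjusted p = 0.0380), the other 5 lying between 0.0518 and 0.0630, but in that fit 4 genes of 12064 tested passed at all. Without Myc_Utx 2B the genes that passed were Mdm2, Ccng1 and Zmat3. An unadjusted edgeR p under 0.05, in either direction, was reached by 6 of the 9 genes in 5 of these fits and by 8 without Myc_p53 2. Gadd45a, among those 8, was lower in Myc_Utx lines in that fit (log2 fold change -0.78). Over all genes tested, from 3125 of 12127 (without Myc_Utx 2D) to 4354 of 11927 (without Myc_p53 2) reached it in these fits.

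**Figure D5:**
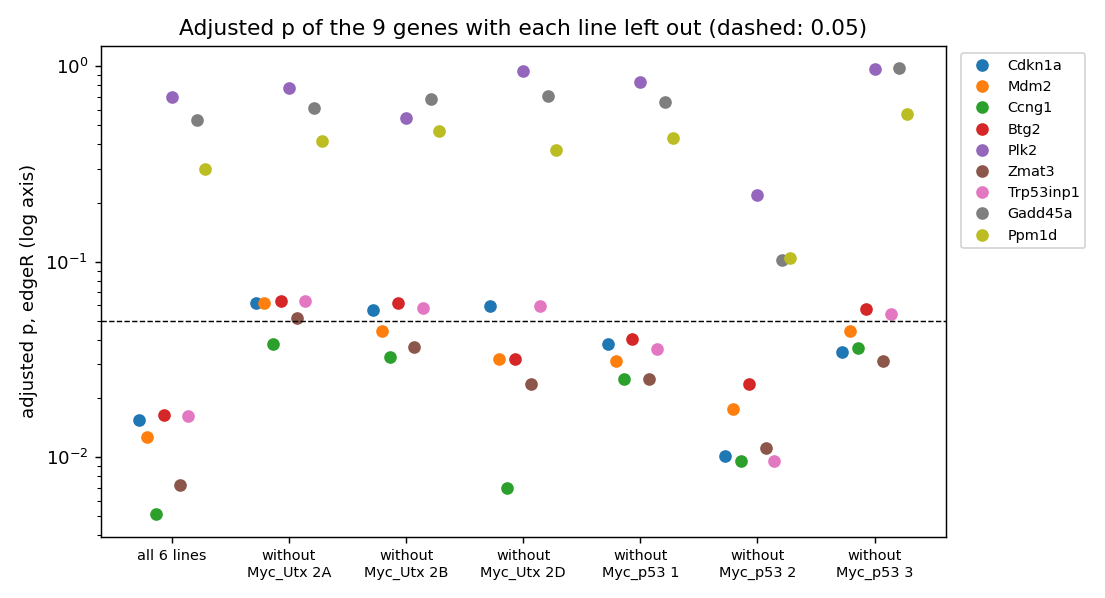
Adjusted p of the 9 genes (edgeR, log axis) with all 6 lines and with each line left out, with a dashed line at 0.05. Ccng1 stays under 0.05 throughout, the other 5 genes that differed lie between 0.00960 and 0.0630 with a line left out, and Plk2, Gadd45a and Ppm1d stay above 0.1.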

How the data were processed

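RNA of 6 mouse liver tumour cell lines was sequenced. The table deposited by the authors holds unnormalized counts for each Ensembl gene and line, and a transcript length in bases. The submitters' processing notes name Trimmomatic 0.36, STAR 2.5.3a, featureCounts 1.6.3, DESeq2 1.20.0 and the build GRCm38, whereas the paper's methods name HTSeq and a human build. Whether counting used strand is not given in the sources used here. Samples were grouped by title. The main test used edgeR 4.0.16 under R 4.3.3 (filterByExpr with a minimum count of 10, TMM, quasi-likelihood F test, Benjamini-Hochberg adjustment). The procedure was also run on simulated counts in which all genes shared the same dispersion. Genes of real libraries differ in dispersion, so that run does not measure how reliable the calls are. Within-library ratios (0.5 added to each count) were compared with exact permutation tests.

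The 9 genes and all lists were chosen with earlier results of these data known. Text names the 9 genes, Kdm6a, Trp53, Kmt2c, the relatives in the ratios, up to 3 genes per direction with the smallest p in each other list, the 5 genes most like Cdkn1a and defining cell type markers.

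Other settings tried were testing without a filter, requiring 10 counts or more in each line, DESeq2 size factors, total counts only, DESeq2 1.42.0, limma voom 3.58.1, offsets for transcript length (natural splines with 5 degrees of freedom) and leaving out each line.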

Additional observations from a re-analysis of the deposited data

How the results depend on the processing

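No paired analysis was possible because no replicate number occurs in both groups. With all 6 lines, the same number of the 9 genes, 6, was higher under each of the 7 other settings, and their log2 fold changes stayed between 1.40 (Btg2) and 4.43 (Cdkn1a). Kmt2c lost its call with transcript length offsets (log2 fold change -0.39, adjusted p = 0.166). DESeq2 called 1281 genes higher and 1578 lower, against 805 and 885. The share of higher genes among those called was 47.6%, 37.3% with total counts only, where all genes tested had a median of -0.0763 on the log2 scale, and 55.2% with limma voom. Of the genes p21 binds, 1 was higher without a filter, with at least 10 counts in every line, with DESeq2 size factors, with total counts only, with limma voom and with length offsets, and 4 were higher and 1 lower by DESeq2. Of the DREAM genes 3 were higher with at least 10 counts in every line and with total counts only, and 9 by DESeq2. Of the signalling targets 1 was higher with at least 10 counts in every line, and 1 was lower by DESeq2. Of the relatives 2 were higher by DESeq2, and 0 were lower with limma voom. The cause of these changes was not tested.

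With each line left out in turn, from 1 (without Myc_Utx 2A) to 6 of the 9 genes were higher. Genes called over the whole table numbered from 4 (without Myc_Utx 2A) to 1954 (without Myc_p53 2), with 81 without Myc_Utx 2B, 71 without 2D, 1108 without Myc_p53 1 and 120 without Myc_p53 3, from 3 to 836 being higher and from 1 to 1118 lower. Log2 fold changes lay between 3.84 and 4.93 for Cdkn1a, 2.10 and 2.51 for Mdm2, 1.39 and 1.73 for Btg2, 2.29 and 2.54 for Zmat3, 1.79 and 2.28 for Trp53inp1, and -0.79 and -0.62 for Kmt2c. For Plk2 they lay between -0.99 and 0.0617, the latter without Myc_p53 3. The counts of higher genes ranged from 0 to 6 for apoptosis, 0 to 3 for repair, 0 to 3 for metabolism, 0 to 2 for signalling, 0 to 5 for the DREAM list, 0 to 1 for the genes p21 binds and 0 to 1 for the relatives. Counts of lower genes ranged from 0 to 2 for the relatives, 0 to 1 for the DREAM list and 0 to 1 for the genes p21 binds. The Plk2 over Plk3 difference ranged from -1.58 to 0.0369 and turned positive without Myc_p53 1 (0.0369) or 3 (0.0173). The Gadd45a over Gadd45b difference ranged from -0.62 to 0.63 and turned negative without Myc_Utx 2A (-0.33), 2B (-0.0484) or Myc_p53 2 (-0.62). These fits have fewer samples, and a group of 2 lines is assumed to vary like the other.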
